A study of Mus musculus with 7 samples.

Results

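The nuclear-encoded subunits of the mitochondrial respiratory chain and ATP synthase were described complex by complex in epididymal white fat, the visceral pad beside the epididymis of male mice. Members were taken by gene symbol from probe sets that the platform annotation pairs with exactly 1 gene, with assembly factors and Cox8b left out. The rule found 106 probe sets for 81 genes, of 19938 genes measured, and each gene was represented by its probe set with the highest mean. Complex I had 34 of these genes, complex II 4, complex III 9, complex IV 17 and complex V 17. The study compared 4 samples from wild type C57Bl/6J mice with 3 from aP2-XBP1 transgenic mice on the same background, all male, 17 weeks old and fed chow. The aP2 promoter is that of Fabp4, which is active in adipocytes and also known from other cells such as macrophages. The sources do not say whether the transgenic animals came from 1 founder line. Each sample was hybridised to 1 array, and the values are log2 expression after RMA, the authors' background correction, quantile normalization and probe set summary.

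The respiratory chain sits in the inner mitochondrial membrane. Complexes I and II pass electrons from NADH and succinate to ubiquinone, complex III passes them to cytochrome c and complex IV to oxygen. Complexes I, III and IV pump protons, and complex V, the ATP synthase, lets them return to make ATP. Most subunits are encoded in the nucleus and imported, while a small set is encoded by mitochondrial DNA. Several complex IV subunits and the c subunit of complex V are encoded by more than 1 nuclear gene. In white fat the chain serves ATP supply for fatty acid and triglyceride synthesis, and it is far more abundant in brown fat.

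Xbp1 read 8.90 to 9.19 in the wild type and 9.66 to 9.99 in the transgenic libraries, so the labels of all 7 libraries fit this gene. Array medians ran from 3.99 to 4.04 and were lower in the transgenic arrays. The labels number the replicates but do not call them separate animals. The p-values therefore rest on the spread among these 7 samples, part of which may be technical. Wild type replicates 1, 3 and 4 stand apart. Serpina1f, an epididymal gene, read 10.70 to 11.50 in them, but only 2.74 in wild type replicate 2, beside 2.83 to 3.73 in the transgenic libraries, and each result below was also computed against wild type replicate 2 alone. The mean log2 value of 13 adipocyte markers (of 15 listed) was 10.47, 11.14, 10.70 and 10.81 in wild type replicates 1 to 4 and spanned 11.13 to 11.31 in transgenic libraries, so wild type replicate 2 was at the transgenic level. For smooth muscle the wild type libraries spanned 6.90 to 9.47 and the transgenic ones 6.41 to 7.01, for macrophages 7.99 to 9.63 and 8.43 to 8.74, and for endothelium 7.72 to 8.12 and 8.01 to 8.21. Fibroblast markers averaged 10.04 to 10.82 and 10.16 to 10.32, epididymal markers 2.68 to 6.63 and 2.79 to 3.45, and striated muscle markers 4.34 to 4.71 and 4.21 to 4.32. Brown and beige markers averaged 3.34 to 3.60 and 3.60 to 3.98, with Ucp1, the uncoupling protein of brown fat, dim at 2.56 to 2.82 everywhere. Of these 7 markers 6 had a higher transgenic mean, against 53.6% of all probe sets, and the median difference was 0.08. Ucp1, Elovl3, Dio2, Prdm16 and Ppargc1a differed by 0.08, 0.12, 0.04, 0.07 and -0.03. Cox8b, the complex IV subunit of brown fat and muscle that the rule leaves out, read 4.22 to 4.99 in wild type and 4.83 to 6.12 in transgenic fat (difference 1.18, limma adjusted p = 0.622). Cidea, a lipid droplet protein, read 3.81 to 4.14 and 4.29 to 5.27 without overlap (difference 0.76, limma adjusted p = 0.622). Their part in the members' values was not tested. In a bulk sample fewer cells of a type and less RNA per cell cannot be told apart.

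Nearly all subunits had a higher mean in transgenic fat, by a small amount. Of the 81 genes 77 had a higher transgenic mean, against 53.6% of all 21789 probe sets tested. The median difference was 0.22 on the log2 scale (1.16-fold), beside 0.01 over all probe sets. By size, 21 genes differed by 0.3 or more, 42 by 0.1 to under 0.3 and 14 by less than 0.1, and 4 lay below 0. With limma 0 of the 81 passed a Benjamini-Hochberg adjusted p of 0.05 in either direction, as did 0.0% of all probe sets. At an unadjusted p under 0.05, 32 members (39.5%) were higher, against 4.82% of all probe sets, and 0 were lower, against 3.12%. Every transgenic library lay above every wild type library for 24 members (29.6%), against 3.38% of all probe sets, and below for 0, against 2.44%. The genes share the same 7 libraries and are not replicates of the genotype.

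The libraries differed among themselves within each genotype. Transgenic replicate 3 held the highest value for 61 of the 81 genes, against 17.6% of all probe sets. Wild type replicate 1 held the lowest for 37 and wild type replicate 3 for 24, against 22.6% and 13.5% of all probe sets. Across members, the median deviation from a gene's own mean was -0.17, -0.00, -0.13 and -0.01 in wild type replicates 1 to 4 and 0.00, 0.11 and 0.24 in transgenic replicates 1 to 3. Transgenic replicate 1 and wild type replicate 2 were thus at the same median. Between that pair, transgenic replicate 1 was higher for 42 genes, lower for 25 and exactly equal for 14, and it was higher for 46.1% of all probe sets. Equal values are common in these data. In 46.9% of all probe sets, and in 10 of the 81 members, 3 or more libraries hold 1 value. That share is not one of ties within this pair. For 17 members the lowest transgenic value equalled the highest wild type value, and these were counted as overlapping.

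**Figure D1:**
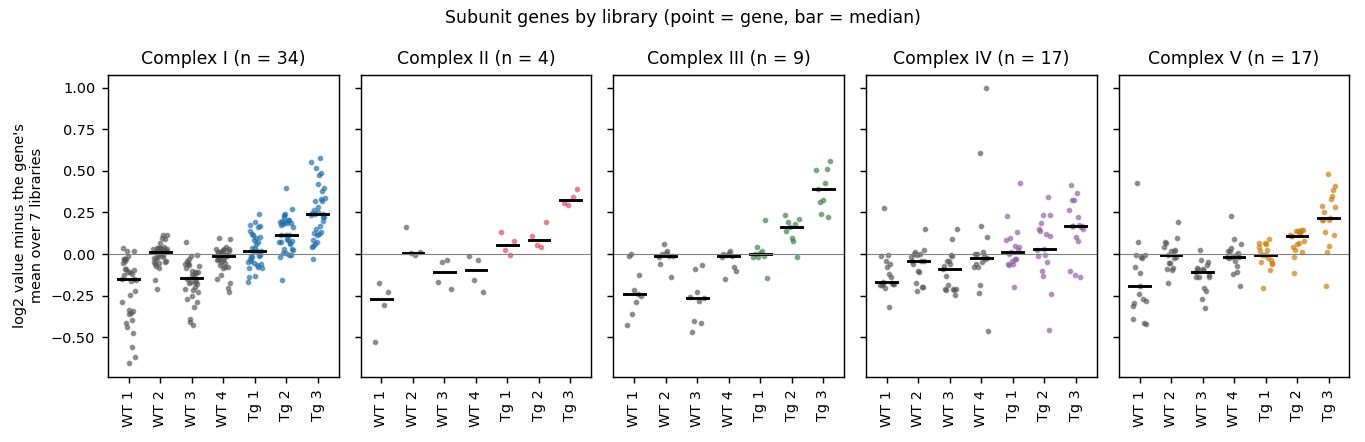
Log2 value of each subunit gene minus its own mean over the 7 libraries (vertical axis) by library and complex; points are genes, grey in wild type (WT) and coloured in transgenic (Tg) libraries, and bars are medians. Transgenic replicate 3 is highest in every complex, and transgenic replicate 1 lies near wild type replicates 2 and 4.

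Complex I, the NADH dehydrogenase, had 33 of 34 genes with a higher transgenic mean and a median difference of 0.21. An unadjusted p under 0.05 was reached by 15 of them, and 13 did not overlap between genotypes, against 4.82% and 3.38% of all probe sets. The 6 core subunits, which carry the flavin and the iron-sulfur clusters, had a median difference of 0.30. The 10 accessory subunits of the matrix arm and the 18 of the membrane arm both had a median of 0.19. Against wild type replicate 2 alone the medians of core, matrix arm and membrane arm were 0.13, 0.12 and 0.11. They were 0.02, 0.07 and 0.07 with the mean of the adipocyte markers as a covariate. No test was run between these classes.

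Ndufb11, a membrane arm subunit, had the smallest p of the complex. It read 8.12, 8.14, 8.06 and 8.23 in wild type replicates 1 to 4 and 8.31, 8.42 and 8.30 in transgenic replicates 1 to 3. The groups did not overlap, but the nearest values lay close (difference 0.21, SE 0.06, limma adjusted p = 0.622). Ndufa7, a small subunit of the matrix arm, read 5.99, 5.81, 5.95 and 5.95 in wild type and 6.14, 6.20 and 6.08 in transgenic fat. Its difference was 0.21 (SE 0.06, exact permutation p = 0.0286, two-sided), and no smaller permutation p can be had from the 35 ways to divide 7 libraries into groups of 4 and 3. Ndufa7 is among the members for which wild type replicate 2 was the lowest library, so its difference against that library alone was larger, 0.33. Ndufs5, of the membrane arm, read 6.91, 7.47, 7.22 and 7.18 in wild type and 7.62, 7.57 and 7.70 in transgenic fat, a difference of 0.44 (SE 0.13). Wild type replicate 2 lay closest to the transgenic values, and against it alone Ndufs5 differed by 0.16.

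Ndufab1, the mitochondrial acyl carrier protein, which also serves fatty acid and lipoic acid synthesis in the mitochondrion, differed 1.41-fold. It read 7.53, 8.00, 7.56 and 7.92 in wild type and 8.08, 8.19 and 8.48 in transgenic fat (difference 0.50, SE 0.16, exact permutation p = 0.0571). A further probe set of Ndufab1 differed by 0.54. Ndufb3, a membrane arm subunit, had the largest difference of all 81 genes, 0.51 (SE 0.17). Wild type replicate 1 was lowest at 5.09 and wild type replicate 2 reached 5.81, while the transgenic libraries spanned 5.94 to 6.14. At the other end was Ndufa11, which contacts complex III in supercomplexes, with 6.99, 6.93, 7.03 and 6.92 in wild type and 6.87, 6.94 and 7.0 in transgenic fat. Its groups overlapped (difference -0.03), and its other probe set differed by 0.13.

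Of the other core subunits, Ndufs7 and Ndufs8, which hold iron-sulfur clusters next to the quinone site, differed by 0.26 and 0.22 without overlap. Ndufs3 differed by 0.33, Ndufs1, with the most clusters of complex I, by 0.35, and the flavin subunit Ndufv1 by 0.40. Ndufv2 differed by 0.19. In the matrix arm Ndufa9 and Ndufa2 differed by 0.35 and 0.22 without overlap. Ndufs4, Ndufs6, Ndufa12 and Ndufv3 ranged from 0.13 (Ndufs6) to 0.25 (Ndufs4), while Ndufa6 and Ndufa5 were at 0.08 and 0.05. In the membrane arm Ndufa13, Ndufc1 and Ndufb7 did not overlap, at 0.15, 0.18 and 0.16. Ndufb9 (0.42), Ndufa10 (0.41) and Ndufb8 (0.38) were larger but overlapped. Ndufb6 (0.28), Ndufb5 and Ndufb10 (both 0.24), Ndufa8 (0.15) and Ndufc2 (0.12) lay between, and Ndufa1 and Ndufa3 (both 0.08) and Ndufb2 (0.04) were lowest apart from Ndufa11.

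**Figure D2:**
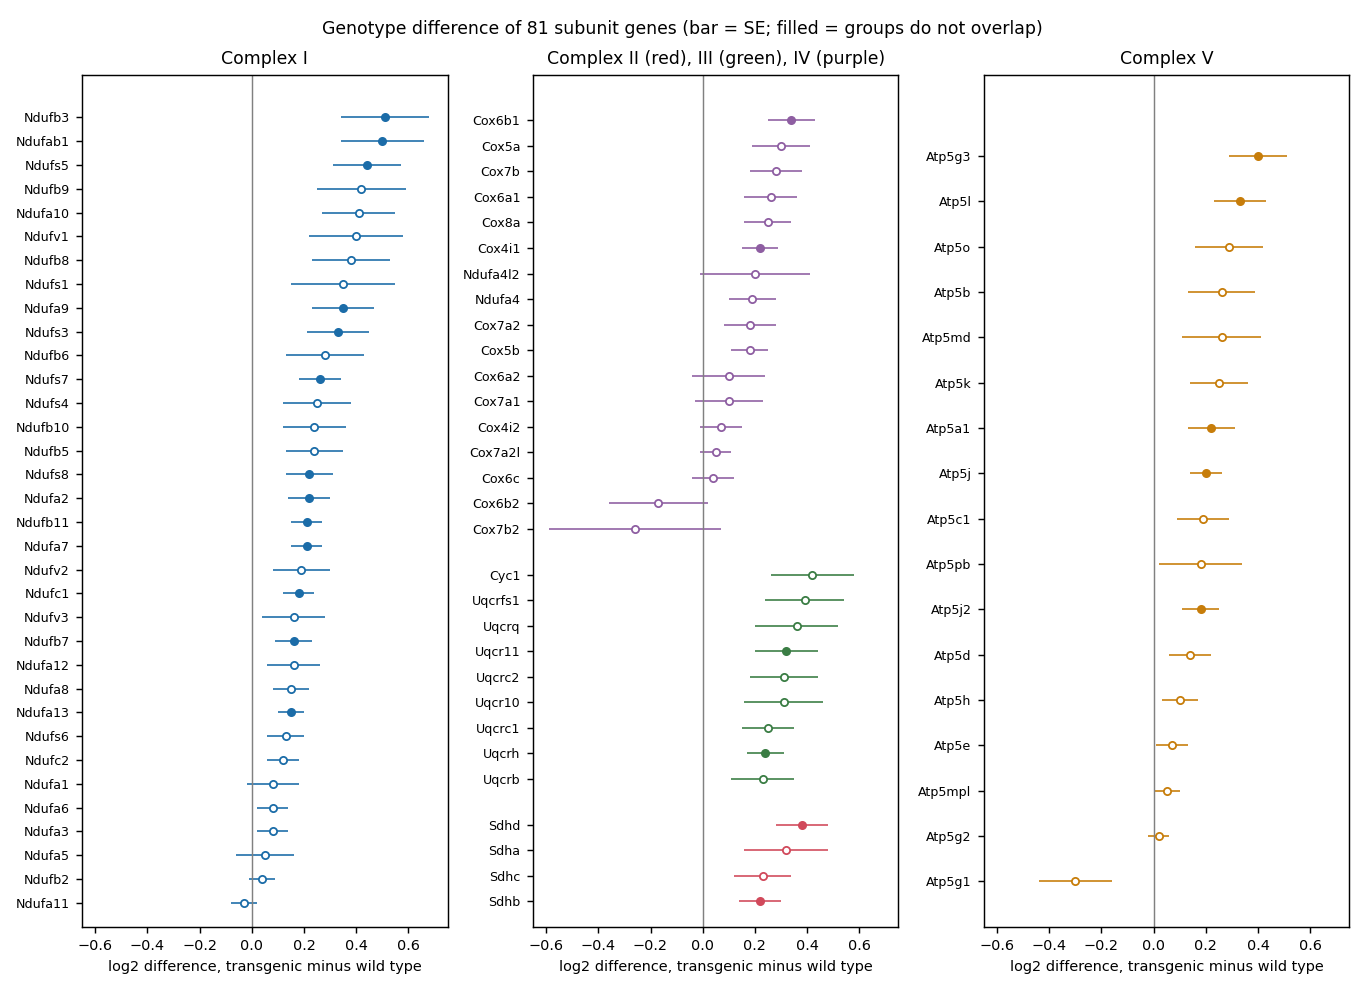
Log2 difference, transgenic minus wild type, of each of the 81 subunit genes by complex, with the standard error from limma as a bar; filled points mark genes whose groups do not overlap. Points lie right of 0 except Ndufa11, Cox6b2, Cox7b2 and Atp5g1.

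Complex II, succinate dehydrogenase, is shared with the TCA cycle and is wholly nuclear-encoded. All 4 genes had a higher transgenic mean (median difference 0.27), 2 of them at an unadjusted p under 0.05 (4.82% of all probe sets). Sdhd, a membrane anchor, had the smallest p of all 81 genes. It read 8.11, 8.35, 8.13 and 8.11 in wild type and 8.42, 8.53 and 8.73 in transgenic fat (1.31-fold, log2 difference 0.38, SE 0.10, limma adjusted p = 0.622). The groups did not overlap, and wild type replicate 2 was set apart from the other 3 wild type libraries towards the transgenic values. Sdhb, the iron-sulfur subunit, read 7.91, 8.09, 8.04 and 7.93 in wild type and 8.11, 8.14 and 8.38 in transgenic fat (difference 0.22). Its groups were separate by a narrow gap. The other anchor, Sdhc, read 7.47, 7.77, 7.74 and 7.74 in wild type and 7.77, 7.82 and 8.12 in transgenic fat (0.23), with an equal value in wild type replicate 2 and transgenic replicate 1. Sdha, the flavin subunit, overlapped, with 9.87, 10.56, 10.23 and 10.39 against 10.53, 10.51 and 10.71 (0.32, SE 0.16), and differed by 0.03 against wild type replicate 2 alone.

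Complex III, cytochrome bc1, had the highest median difference of the 5 complexes, 0.31, with all 9 genes higher. Of these, 4 were at an unadjusted p under 0.05 and 2 were without overlap, against 4.82% and 3.38% of all probe sets. Complex III had the highest median in every fit that was run except 2. Without wild type replicate 3 complex II had 0.28 and complex III 0.25, and without transgenic replicate 3 both had 0.19. The difference between complexes was not tested. Uqcrh, the hinge subunit, read 7.82, 7.81, 7.88 and 7.87 in wild type and 8.15, 7.93 and 8.17 in transgenic fat. Its wild type libraries varied little (SD 0.04), and the difference was 0.24 (SE 0.07, exact permutation p = 0.0286). Uqcr11, a small subunit, read 6.76, 6.76, 6.36 and 6.61 in wild type and 6.80, 6.95 and 7.07 in transgenic fat (0.32), without overlap by a narrow gap.

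The redox subunits of complex III had its largest differences. Cyc1, cytochrome c1, read 8.22, 8.63, 8.39 and 8.63 in wild type and 8.63, 8.88 and 9.15 in transgenic fat (1.34-fold, log2 difference 0.42, SE 0.16). Uqcrfs1, the Rieske iron-sulfur protein, read 6.27, 6.50, 6.10 and 6.50 in wild type and 6.50, 6.69 and 7.02 in transgenic fat (0.39, SE 0.15). In Uqcrfs1 wild type replicates 2 and 4 held the same value as transgenic replicate 1. In Cyc1 wild type replicate 2 did, and wild type replicate 4 read alike to the 2 decimals given. In both genes only transgenic replicates 2 and 3 lay above every wild type library. The core proteins Uqcrc1 and Uqcrc2, relatives of mitochondrial processing peptidase, differed by 0.25 and 0.31. Uqcrq and Uqcr10 differed by 0.36 and 0.31. Uqcrb, a ubiquinone-binding subunit, was lowest at 0.23, with 9.59, 10.01, 9.86 and 9.94 in wild type and 9.93, 10.11 and 10.19 in transgenic fat. Its groups overlapped, and its 2 other probe sets both differed by 0.29.

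Complex IV, cytochrome c oxidase, is given by the type of gene, and no test was run between the types. Ndufa4, named after complex I but known as a complex IV subunit, was counted here with its relative Ndufa4l2. The 11 broadly expressed genes all had a higher transgenic mean (median 0.22), 7 at an unadjusted p under 0.05 (4.82% of all probe sets). For Cox6c and Cox7a2l the direction rests on the probe set chosen, since their other probe sets differed by -0.05 and -0.10. Both genes were lower when the mean of their probe sets was used. The 6 genes known from a restricted set of tissues had a median of 0.08, with 4 higher, 2 lower and 0 at an unadjusted p under 0.05. These 6 were dim, with wild type means from 2.51 to 5.10, and they overlapped in every case.

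Cox6b1, which faces the cytochrome c side, read 8.30, 8.50, 8.32 and 8.32 in wild type and 8.52, 8.74 and 8.83 in transgenic fat. That is a 1.26-fold difference (log2 difference 0.34, SE 0.09, exact permutation p = 0.0286), although transgenic replicate 1 lay just above wild type replicate 2. Cox4i1, the largest nuclear subunit and a site of regulation by ATP, read 8.54, 8.71, 8.64 and 8.65 in wild type and 8.81, 8.75 and 8.99 in transgenic fat (0.22, SE 0.07). These were the only genes of the complex whose groups did not overlap. Cox7b read 8.52, 8.38, 8.37 and 8.55 in wild type and 8.55, 8.92 and 8.75 in transgenic fat (0.28), and Cox8a 8.85, 9.05, 8.78 and 9.00 in wild type and 9.05, 9.26 and 9.19 in transgenic fat (0.25). In both, the lowest transgenic value equalled the highest wild type value. Cox5a, which binds thyroid hormone metabolites, differed by 0.30, Cox5b by 0.18 and Cox6c by 0.04. Cox6a1 read 8.25, 8.43, 8.20 and 8.34 in wild type and 8.35, 8.60 and 8.74 in transgenic fat (0.26), with only transgenic replicate 1 inside the wild type range. Ndufa4 read 10.24, 10.38, 10.21 and 10.52 in wild type and 10.46, 10.53 and 10.59 in transgenic fat (0.19). Cox7a2 read 7.32, 7.64, 7.63 and 7.65 in wild type and 7.61, 7.76 and 7.86 in transgenic fat (0.18), so wild type replicate 1 was low and the other 3 lay near transgenic replicate 1. Cox7a2l, which links complexes III and IV in supercomplexes, read 7.62, 7.70, 7.83 and 7.73 in wild type and 7.79, 7.69 and 7.82 in transgenic fat (0.05), with wholly overlapping groups.

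The testis forms had the lowest differences of complex IV. Cox6b2 read 4.44 in wild type replicate 4 and 3.61 to 3.79 in the other wild type libraries, against 3.70 to 3.79 in transgenic fat (difference -0.17). Cox7b2 read 3.39 in wild type replicate 4, 2.18 to 2.26 in the other wild type libraries and 1.94 to 2.53 in transgenic fat (-0.26). Wild type replicate 4 was thus highest for both genes. It also held the highest value of all 7 sperm markers measured, whose mean log2 value was 7.53 there, 3.07 to 3.41 in the other wild type libraries and 3.13 to 3.25 in transgenic fat. The part of these cells in the values of Cox6b2 and Cox7b2 was not tested. Without wild type replicate 4 the differences were 0.00 and 0.03. Cox7a1 and Cox6a2, the forms of heart and skeletal muscle, with Cox7a1 also known from brown fat, both differed by 0.10. Cox7a1 read 5.14, 5.04, 5.14 and 5.10 in wild type and 4.95, 5.14 and 5.51 in transgenic fat, so that transgenic libraries were both lowest and highest. Cox6a2 read 5.08, 4.63, 4.76 and 4.57 in wild type and 4.90, 4.70 and 4.97 in transgenic fat, all 3 within the wild type range. Cox4i2, the form of lung and of low oxygen, read 4.52, 4.49, 4.46 and 4.53 in wild type and 4.76, 4.52 and 4.43 in transgenic fat (0.07). Ndufa4l2, also induced by low oxygen, read 4.72, 5.05, 5.05 and 4.44 in wild type and 5.33, 4.66 and 5.05 in transgenic fat (0.20). In both transgenic replicate 1 was highest of all 7 libraries and the groups overlapped.

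Complex V, the ATP synthase, had 16 of 17 genes with a higher transgenic mean and a median difference of 0.19. Of these genes, 4 were at an unadjusted p under 0.05 and 5 were without overlap, against 4.82% and 3.38% of all probe sets. In the catalytic head Atp5a1 and Atp5b, the alpha and beta subunits, differed by 0.22 and 0.26, Atp5c1, the central stalk, by 0.19, Atp5d by 0.14 and Atp5e by 0.07. Atp5a1 did not overlap, but its difference against wild type replicate 2 alone was 0.08. In the peripheral stalk Atp5j read 9.99, 10.01, 10.01 and 10.06 in wild type and 10.10, 10.24 and 10.31 in transgenic fat (0.20, SE 0.06, exact permutation p = 0.0286). Atp5j thus separated the genotypes with a small spread in wild type (SD 0.03). Atp5o differed by 0.29, Atp5pb by 0.18 and Atp5h by 0.10. Among small membrane subunits Atp5l, needed for dimers of the enzyme, read 7.38, 7.67, 7.43 and 7.54 in wild type and 7.74, 7.78 and 8.00 in transgenic fat (0.33, SE 0.10). Its 5 other probe sets differed by 0.20 to 0.29, in the same direction. Atp5j2 read 9.04, 8.97, 8.85 and 9.05 in wild type and 9.08, 9.12 and 9.27 in transgenic fat (0.18), with a narrow gap between genotypes. Atp5md (0.26), Atp5k (0.25) and Atp5mpl (0.05) overlapped or met at an equal value.

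The c ring, the rotor through which protons pass, is built from 1 protein that 3 nuclear genes encode with different import sequences. Their differences were unlike in size and sign. Atp5g3 read 9.69, 9.88, 9.66 and 9.81 in wild type and 10.00, 10.07 and 10.41 in transgenic fat (1.32-fold, log2 difference 0.40, SE 0.11, exact permutation p = 0.0286). Atp5g2 read 9.02, 8.89, 8.91 and 8.93 in wild type and 8.94, 8.97 and 8.96 in transgenic fat (0.02, SE 0.04), with overlapping groups. Atp5g1 had the lowest difference of all 81 genes, -0.30 (SE 0.14). It read 6.84, 6.24, 6.44 and 6.64 in wild type and 6.21, 6.30 and 6.22 in transgenic fat, and its other probe set differed by -0.26. High values of Atp5g1 were thus those of wild type replicates 1, 3 and 4, the libraries with epididymal transcripts, and wild type replicate 2 was at the transgenic level. The epididymal score is the mean of Serpina1f, Spink8 and Defb42, which are high in those 3 libraries. The other 3 epididymal markers measured, Lcn5, Lcn8 and Adam7, were dim and had higher transgenic means, by 0.36, 0.37 and 0.44. With the epididymal score as a covariate the Atp5g1 difference was -0.03, while that of Atp5g3 was 0.28. This fit rests largely on wild type replicate 2, the only wild type library in which the score is low.

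Within a library, the log2 value of Atp5g1 minus that of Atp5g3 was -3.22 ± 0.33 (SD, n = 4) for wild type samples and -3.92 ± 0.24 (SD, n = 3) for transgenic samples, a shift of -0.70. All 3 transgenic libraries lay below all 4 wild type libraries (exact permutation p = 0.0571). For Atp5g2 minus Atp5g3 the values were -0.82 ± 0.14 (SD, n = 4) and -1.20 ± 0.21 (SD, n = 3), a shift of -0.38, again without overlap (exact permutation p = 0.0571). Neither passed after Benjamini-Hochberg adjustment over the 9 pairs of related genes compared this way (both adjusted p = 0.257). Only the shift between genotypes can be read from these values, since levels of different probe sets are not comparable. Against wild type replicate 2 alone the shifts were -0.28 and -0.22.

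**Figure D3:**
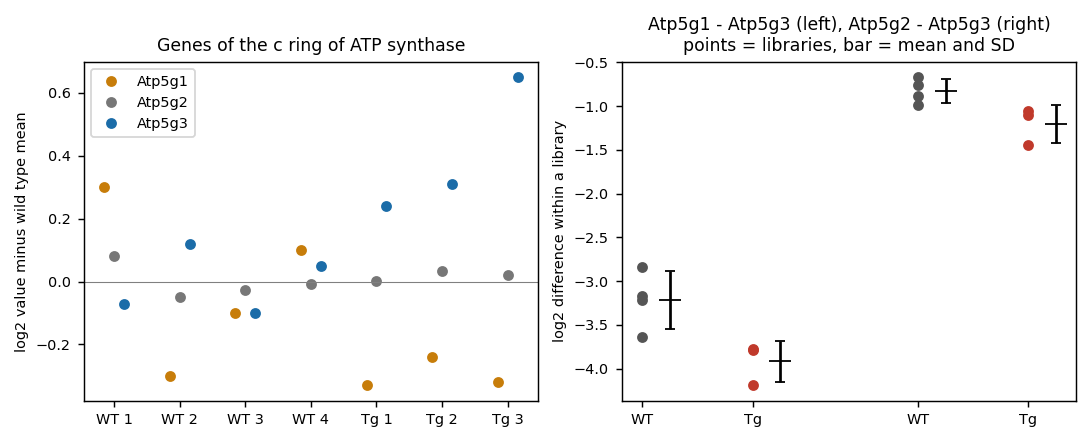
Left, log2 values of Atp5g1, Atp5g2 and Atp5g3 in each library minus the wild type mean of the gene; right, within-library log2 differences by genotype, with points for libraries and bars for mean and SD. Atp5g3 is highest in the 3 transgenic libraries, and Atp5g1 in wild type replicates 1, 3 and 4.

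The other 7 pairs, all of complex IV genes and their relatives, overlapped between genotypes. The widest shifts were those of the testis forms, -0.51 for Cox6b2 minus Cox6b1 (exact permutation p = 0.114) and -0.55 for Cox7b2 minus Cox7b (exact permutation p = 0.257). The muscle forms shifted less, by -0.16 for Cox6a2 minus Cox6a1 and -0.09 for Cox7a1 minus Cox7a2. Cox4i2 minus Cox4i1 and Cox7a2l minus Cox7a2 both shifted by -0.14, and Ndufa4l2 minus Ndufa4 by 0.01. With groups of 4 and 3 these shifts have wide errors, and a p above the threshold does not show that a pair keeps its balance.

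Promoters were read for the 66 of 81 members that RefSeq's table for GRCm38.p6 holds, as the 250 bases before the gene's start. Motif letters searched on both strands were GCGCANGCG, from the site of NRF1 (nuclear respiratory factor), CCGGAAG, the core of ETS factors such as GABP, AAGATGGC (YY1), TCAAGGTCA (ERR, the estrogen-related receptors), and TGACGTGG, an element bound by XBP1. The NRF1 letters stood in 13 members (19.7%), against 5.86% of 27025 genes, and the ETS letters in 12 (18.2%), against 7.83%. The YY1 letters stood in 1 member (1.52%, against 1.83%), as did those of ERR (1.52%, against 0.422%), and the letters of the XBP1 element in 0, against 0.603% of genes. Members with the NRF1 letters had a median difference of 0.19 and those without 0.22, while members with and without the ETS letters had 0.27 and 0.20. A match is a description of letters, and a window without them says nothing about the factor. Atp5h, Atp5l, Cox6a1 and Sdhd hold both the NRF1 and the ETS letters, and no motif overlaps a different one in the promoters shown here.

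Promoters are shown for Sdhd and Cox6b1, the members with the smallest p, and for the 3 c ring genes, whose differences were unlike, each on the minus strand and written 5′ to 3′ towards the start, with motif letters in capitals. Sdhd lies at chr9:50603850-50604099, Cox6b1 at chr7:30626115-30626364, Atp5g3 at chr2:73911327-73911576, Atp5g2 at chr15:102671048-102671297 and Atp5g1 at chr11:96075632-96075881 (GRCm38.p6).
Sdhd: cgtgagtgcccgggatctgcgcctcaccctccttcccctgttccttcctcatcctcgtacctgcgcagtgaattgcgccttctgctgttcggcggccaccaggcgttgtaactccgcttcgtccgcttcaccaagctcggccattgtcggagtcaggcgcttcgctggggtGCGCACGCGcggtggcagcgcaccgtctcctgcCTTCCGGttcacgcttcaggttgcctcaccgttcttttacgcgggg
Cox6b1: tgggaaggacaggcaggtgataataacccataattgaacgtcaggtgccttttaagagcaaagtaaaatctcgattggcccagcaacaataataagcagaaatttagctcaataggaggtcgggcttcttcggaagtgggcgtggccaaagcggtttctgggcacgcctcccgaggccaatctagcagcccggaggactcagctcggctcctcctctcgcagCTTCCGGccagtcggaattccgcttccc
Atp5g3: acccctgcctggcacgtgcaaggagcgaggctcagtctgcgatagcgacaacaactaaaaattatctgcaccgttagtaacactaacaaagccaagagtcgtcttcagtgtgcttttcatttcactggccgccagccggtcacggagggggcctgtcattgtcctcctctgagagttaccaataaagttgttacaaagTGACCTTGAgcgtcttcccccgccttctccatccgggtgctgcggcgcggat
Atp5g2: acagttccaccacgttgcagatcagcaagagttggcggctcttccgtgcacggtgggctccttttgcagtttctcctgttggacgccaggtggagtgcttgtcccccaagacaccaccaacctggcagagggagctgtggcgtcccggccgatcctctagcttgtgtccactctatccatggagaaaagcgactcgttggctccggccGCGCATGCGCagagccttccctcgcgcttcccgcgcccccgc
Atp5g1: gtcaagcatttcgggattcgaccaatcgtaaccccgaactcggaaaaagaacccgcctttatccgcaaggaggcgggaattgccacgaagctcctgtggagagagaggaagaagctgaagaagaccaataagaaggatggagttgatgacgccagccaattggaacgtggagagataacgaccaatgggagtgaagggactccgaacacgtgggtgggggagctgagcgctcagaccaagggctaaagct
Sdhd holds the NRF1 letters 79 to 71 bases and the ETS letters 46 to 40 bases before the start. Cox6b1 holds the ETS letters 28 to 22 bases before it. The c ring genes differ in these windows, with the ERR letters in Atp5g3 at 52 to 44 bases, the NRF1 letters on both strands in Atp5g2, overlapping, at 42 to 33 bases and none of the 5 motifs in Atp5g1.

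Other genes of the same organelle differed by varying amounts. Of TCA cycle and pyruvate dehydrogenase enzymes, which feed complexes I and II, 16 of 16 measured genes had a higher transgenic mean. The median difference was 0.41, and 9 were at an unadjusted p under 0.05, against 4.82% of all probe sets. Against wild type replicate 2 alone the median of this list was 0.19, with 13 of 16 genes higher. With the mean of the adipocyte markers (adipocyte score) as a covariate it was 0.08, with 10 of 16 higher. The 81 subunits had medians of 0.12 and 0.07 in these fits. The pyruvate dehydrogenase subunits Pdhb, Pdha1 and Dlat, which are not enzymes of the cycle itself, differed by 0.97, 0.71 and 0.60. Idh3g, a subunit of isocitrate dehydrogenase, differed by 0.42 and Mdh2, malate dehydrogenase, by 0.41. Electron carriers and ubiquinone synthesis had 14 of 14 higher, 8 at an unadjusted p under 0.05 (4.82% of all probe sets), and a median of 0.24. That median was 0.15 against wild type replicate 2 alone and 0.12 with the adipocyte score. In this list Coq9 and Coq3, both of ubiquinone synthesis, differed by 0.57 and 0.53. Cycs, cytochrome c, differed by 0.54 with overlapping groups.

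Assembly factors are given by complex, and no test was run against the subunits. For complex I 12 of 14 were higher (median 0.13), led by Ecsit (0.38) and Foxred1 (0.44). For complex IV 15 of 16 were higher (0.14), with Cox18 at 0.28 and Taco1, a translation activator, at 0.32. For complexes II and III 4 of 4 and 6 of 6 were higher (medians 0.15 and 0.14), with Sdhaf3 and Sdhaf4 both at 0.15, Bcs1l, the Rieske protein translocase, at 0.26 and Uqcc1 at 0.24. For complex V 3 of 3 were higher (0.30), with Atpaf1 and Atpaf2, chaperones of the catalytic head, at 0.30 and 0.41. Protein import had 11 of 12 higher (0.15), with Timm23 at 0.36 and Tomm40 at 0.20. Against wild type replicate 2 alone the assembly medians for complexes I to V were 0.07, 0.05, 0.02, 0.15 and 0.13. The import median was then 0.10. With the adipocyte score the assembly medians were 0.05, 0.07, 0.05, 0.06 and 0.05, and the import median was 0.04.

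Regulators and carriers had medians near 0. Of 14 regulators of mitochondrial gene expression 9 (64.3%) had a higher transgenic mean, against 53.6% of all probe sets. An unadjusted p under 0.05 was reached by 0, against 4.82% (higher) and 3.12% (lower) of all probe sets. In a list of 14 genes this count does not set the regulators apart from all probe sets. Their median was 0.04, with -0.01 against wild type replicate 2 alone and -0.02 with the adipocyte score. Ppargc1a, the coactivator PGC-1alpha, read 3.65 to 4.31 in wild type and 3.95 to 4.13 in transgenic fat (-0.03). Nrf1 and Gabpa, which bind the motifs above, differed by -0.09 and -0.03, and Tfb1m and Polrmt, of mitochondrial transcription, by 0.28 and 0.13. Of 8 carriers and channels 3 were higher (median -0.02). Their median was -0.05 against wild type replicate 2 alone and -0.09 with the adipocyte score. Atpif1, the inhibitor of ATP synthase, read 9.56, 8.73, 9.45 and 9.39 in wild type and 8.56, 8.64 and 8.55 in transgenic fat (-0.70, SE 0.20), with wild type replicate 2 close to the transgenic libraries. Vdac2, a channel of the outer membrane, differed by -0.22. Of 13 mitochondrially encoded subunits 2 were measured with a probe set of 1 symbol, ND3 of complex I at 0.22 and COX2 of complex IV at 0.06, both overlapping. The median of these 2 was -0.08 against wild type replicate 2 alone and -0.17 with the adipocyte score.

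**Figure D4:**
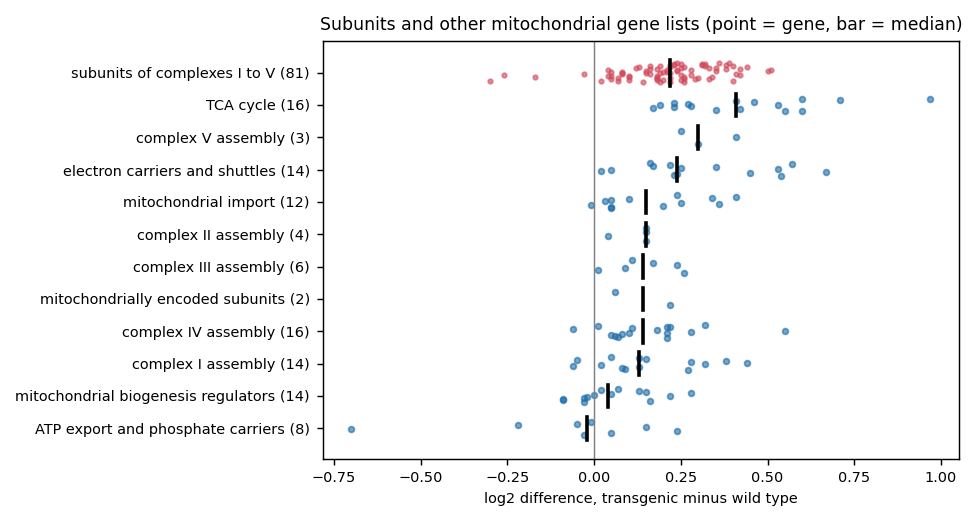
Log2 difference, transgenic minus wild type (horizontal axis), of subunit genes and of other mitochondrial gene lists; points are genes, bars are list medians, and the number of genes measured is in parentheses. The median of the TCA cycle list, which includes pyruvate dehydrogenase, is 0.41, that of the 81 subunits 0.22 and that of the regulators 0.04. With the adipocyte score as a covariate, which is not drawn, these medians were 0.08, 0.07 and -0.02.

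The size of the differences depended on the wild type libraries and moved with adipocyte markers. Against wild type replicate 2 alone, 76 of 81 members were higher in the transgenic mean, against 52.1% of all probe sets, and the median difference was 0.12. A fit with 1 control library holds no wild type spread, so only differences and their signs are given for it. The complex medians were then 0.12, 0.13, 0.22, 0.13 and 0.08 for complexes I to V. With the epididymal score as a covariate, 75 members were higher (53.4% of all probe sets), with a median of 0.14 and 3 at an unadjusted p under 0.05 (3.33%). This is nearly the same comparison and no separate check, since wild type replicate 2 is the only wild type library with a low score. With the adipocyte marker score as a covariate, 62 were higher (54.4% of all probe sets), the median was 0.07 and 1, Ndufa7, had an unadjusted p under 0.05 (4.16%). The adipocyte markers themselves differed by a median of 0.41, with 13 of 13 higher. The sign of 17 members turned with the adipocyte score, 16 of them from higher to lower, among them Ndufs1 (-0.09), Sdha (-0.10), Atp5b (-0.04) and Atp5pb (-0.21). Atp5pb was also lower against wild type replicate 2 alone (-0.09) and with the epididymal score (-0.05), and both fits rest largely on that library. How far the members follow the number of adipocytes, the RNA per adipocyte or the transgene was not tested.

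**Figure D5:**
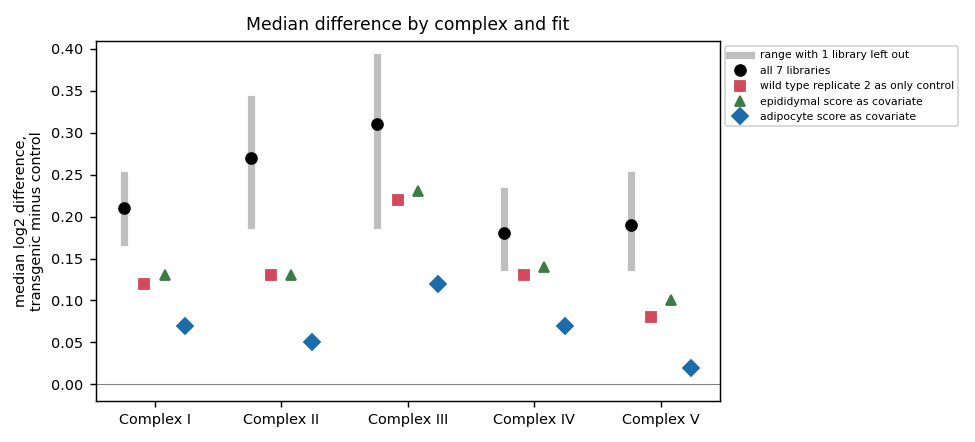
Median log2 difference of the subunits of each complex (vertical axis) with all libraries, against wild type replicate 2 alone and with the epididymal or adipocyte marker score as a covariate; grey bars span the 7 fits that leave out 1 library. Medians with the adipocyte score are the lowest in each complex, from 0.02 in complex V to 0.12 in complex III.

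The counts of small p-values also rested on single libraries. Of the members, 32 were higher at an unadjusted p under 0.05 with all libraries (4.82% of all probe sets). Without transgenic replicate 3 there were 10 (2.96% of all probe sets), without transgenic replicate 2 16 (3.32%), without wild type replicate 3 15 (2.79%) and without wild type replicate 1 20 (3.66%). With array weights, which count the arrays unequally, there were 51 (9.09%). The count without overlap was 24 with all libraries (3.38%), 58 without transgenic replicate 1 (8.17%) and 37 without wild type replicate 2 (8.23%), and fewer libraries make overlap rarer by themselves. With the arrays shifted to a common median it was 47 (20.1%), and 45 members were higher at an unadjusted p under 0.05 (8.72%).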

How the data were processed

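Per the submitters' processing notes, the authors processed the Affymetrix Mouse Gene 1.0 ST arrays with RMA. The sources used here give neither its version nor a genome build. The deposited values are log2 expression, already normalized, and were not normalized again. Of 35556 probe sets, 21789 carry 1 gene symbol in the platform annotation, 1621 several and 12146 none; 6 of those with several symbols include a member and were left out. Near-identical copies of these genes elsewhere in the genome make single probe sets uncertain. Differences (transgenic minus wild type) came from limma 3.58.1 in R 4.3.3, tested on simulated data, with Benjamini-Hochberg adjustment over the 21789 probe sets; exact permutation tests over the 35 ways to divide the samples were two-sided. The number of arrays limits the precision. Members and lists were chosen with earlier results of these data known. Full values are given for, in each complex, up to 4 members with the smallest p, the lowest member and the related genes compared in pairs, and in other lists up to 2 genes with the smallest p are named. Ndufb3, Cycs, Ppargc1a, Nrf1, Gabpa, Pdhb, Pdha1 and Dlat stand outside this rule and were chosen after their values were seen. Between any pair of arrays the correlation was 0.973 to 0.996 and at most 18.1% of values were identical. The alternatives were other normalizations, filters, priors, weights and probe set choices, a replicate block, marker covariates and leaving out libraries.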

Additional observations from a re-analysis of the deposited data

Results flagged for a closer look

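In the wild type group, where 4 libraries allow the check, 11 of 96 sets of values (81 genes, 9 pairs and the medians of all members and of each complex) had 1 library far from the other 3, measured by its gap relative to the whole range; chance gives about 1 in 20. Wild type replicate 2 was high for Sdhd, at 8.35 against 8.11 to 8.13, and for Cox6b1, at 8.50 against 8.30 to 8.32. Both values lie towards the transgenic libraries, and these are the 2 members with the smallest p. Wild type replicate 1 was low for Cox7a2, at 7.32 against 7.63 to 7.65, and for Sdhc, at 7.47 against 7.74 to 7.77. Wild type replicate 3 was low for Uqcr10, at 6.23 against 6.64 to 6.70, for Atp5k, at 6.40 against 6.65 to 6.70, and by a very small step for Ndufa3, at 8.01 against 8.02. Wild type replicate 4 was high for Cox6c, at 10.42 against 10.15 to 10.19, and for Atp5d, at 9.88 against 9.77 to 9.78. It was also high for Cox7b2, at 3.39 against 2.18 to 2.26, and so for Cox7b2 minus Cox7b, at -5.17 against -6.26 to -6.19. That library holds the sperm transcripts, whose part in these values was not tested. The 3 transgenic libraries are too few for this check.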

How the results depend on the processing

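Of 1203 values under other settings, 1126 kept their direction and side of the threshold (genes and pairs) or stayed within 1.5 times the count or 1 SD of the median. Much of this was fixed in advance, so the share does not measure robustness. Filters and priors leave a gene's difference unchanged, and the block, weights and covariates leave the overlap of groups unchanged. With 0 members under an adjusted p of 0.1 in any fit, no member changed its side of the threshold. The size of a gene's difference could still shrink, as for Sdhc from 0.23 to 0.01 with the adipocyte covariate. With limma 0 members passed an adjusted p of 0.05 or 0.1 under any of the 19 other fits, the smallest adjusted p being 0.155, without wild type replicate 2. The count of members higher at an unadjusted p under 0.05 (32) was 51 with array weights (9.09% of all probe sets). It was 3 with the epididymal covariate (3.33%) and 1 with the adipocyte covariate (4.16%). With 1 library left out it ran from 10 without transgenic replicate 3 (2.96% of all probe sets) to 35 without wild type replicate 2 (6.66%). The lower count ran from 0 to 1. The count higher without overlap was 24 with all libraries (3.38% of all probe sets) and 47 at a common array median (20.1%). Against wild type replicate 2 alone, all 3 transgenic libraries were higher for 37 members, against 24.0% of all probe sets. That is a count of signs only, since 1 control library holds no wild type spread. With 1 library left out, the count higher without overlap ran from 24 without transgenic replicate 3 (6.78%) to 58 without transgenic replicate 1 (8.17%). The lower count was 0 to 1. With the adipocyte covariate the median of all members (0.22) was 0.07, and those of complexes I to V were 0.07, 0.05, 0.12, 0.07 and 0.02. Against wild type replicate 2 alone complexes I, II and V had 0.12, 0.13 and 0.08, and complex II had 0.13 with the epididymal covariate. With 1 library left out the median of all members was 0.16 to 0.26. The sign turned for 17 members with the adipocyte covariate, 7 against wild type replicate 2 alone and 6 with the epididymal covariate, and for at most 4 under any other fit. For the genes with full values these were the following, and the cause was not tested. Ndufa11 was 0.01 at a common median and against wild type replicate 2 alone, and 0.05 as the mean of its probe sets. With the adipocyte covariate Sdha was -0.10, Uqcrb -0.03, Cox7a2 -0.01 and Atp5g1 0.01. Against wild type replicate 2 alone and with the epididymal covariate, Cox7b2 was 0.05 and 0.09 and Cox6b2 0.12 and 0.14. Under the same settings, which both rest largely on wild type replicate 2, Ndufa4l2 was -0.03 and -0.05. Atp5g2 was -0.01 after a further quantile normalization, and Cox7a2l -0.02 with array weights and -0.03 as the mean of its probe sets. Against wild type replicate 2 alone Cox6a2 minus Cox6a1 was 0.10, Cox7a1 minus Cox7a2 0.06 and Ndufa4l2 minus Ndufa4 -0.18. With 1 library left out Cox7b2 ran from -0.41 to 0.03, Cox6b2 from -0.27 to 0.00, Ndufa11 from -0.06 to 0.01, Cox4i2 from -0.02 to 0.14 and Cox7a1 from -0.06 to 0.22. Likewise Cox7a1 minus Cox7a2 ran from -0.18 to 0.00 and Ndufa4l2 minus Ndufa4 from -0.18 to 0.18.

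Replicate numbers 1 to 3 occur in both genotypes, but the deviations of libraries of the same number correlated at -0.14, -0.09 and 0.06, so the numbers were not taken to pair the samples. With the replicate number as a block, under which wild type replicate 4 has no partner and adds nothing to the difference, 79 members were higher and 25 had an unadjusted p under 0.05 and were higher (3.84% of all probe sets); the medians of complexes I to V were 0.24, 0.30, 0.36, 0.20 and 0.22. Cox7b2 was then 0.03, Cox6b2 0.00 and Ndufa4l2 minus Ndufa4 -0.18.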
